A study of Homo sapiens with 6 samples.

Results

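Leukocyte integrins and the cytoplasmic proteins that activate them were examined in MOLM14 cells, a human acute myeloid leukemia (AML) line that carries the internal tandem duplication of the receptor kinase FLT3 (FLT3-ITD). The genes were chosen by name and not by a cutoff on their values, but with earlier results of these data known. ITGAL, ITGAM and ITGAX encode α subunits that pair with the β2 subunit ITGB2. ITGA4 and ITGA5 encode α subunits that pair with the β1 subunit ITGB1. ITGAE encodes the α subunit that pairs with β7, a β subunit that the α4 product of ITGA4 also joins. TLN1 and FERMT3 encode the activators talin-1 and kindlin-3. All 10 genes were among the 13244 genes of the deposited count table, and all 10 passed the filter on low counts. The study treated cells with HSN748, an alkynyl nicotinamide made as an inhibitor of FLT3, and asked which transcripts the compound alters. RNA-Seq counts were analysed for 3 cultures treated with 2 nM HSN748 for 24 hours (replicates 7, 8 and 9) and 3 cultures that received the solvent DMSO for the same time (replicates 1, 2 and 3). All 6 cultures are of the same FLT3-ITD line, so differences between patients or between lines are not covered, and the study describes the triplicates as biologically independent.

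Integrins are paired α and β receptors that hold cells to matrix and to each other. On circulating leukocytes they rest in a bent form that binds ligand weakly. Signals from inside the cell bring talin and kindlin to the tail of the β subunit, the α and β tails part, and the receptor extends and binds ligand. αLβ2 (LFA-1) and αMβ2 (Mac-1) carry adhesion of leukocytes to endothelium, and αMβ2 and αXβ2 also bind complement fragments. α4β1 (VLA-4) binds VCAM-1 and fibronectin, and α5β1 binds fibronectin. Through these ligands AML cells are known to adhere in the bone marrow. Only RNA was measured here, not the receptors at the cell surface.

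The coding bases behind this switch are shown for the tails of the members whose transcripts differed most and for both β subunits. They were read from the principal coding transcripts of the human GENCODE v29 annotation, 5′ to 3′, with the motif codons in capitals. In each α subunit the capitals encode GFFKR, the membrane-proximal motif that clasps the β tail in the resting receptor.
ITGAX: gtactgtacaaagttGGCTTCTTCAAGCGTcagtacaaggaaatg
ITGAM: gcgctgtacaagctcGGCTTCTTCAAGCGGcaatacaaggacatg
ITGAL: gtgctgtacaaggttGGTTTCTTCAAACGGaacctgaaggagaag
ITGA4: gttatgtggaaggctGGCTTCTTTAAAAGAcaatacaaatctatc
In each β subunit the capitals encode the NPxY or NPxF motif, the membrane-proximal one being bound by talin and the distal one by kindlin.
ITGB1 membrane-proximal: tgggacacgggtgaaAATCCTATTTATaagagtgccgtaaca
ITGB1 distal: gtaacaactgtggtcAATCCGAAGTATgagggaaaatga
ITGB2 membrane-proximal: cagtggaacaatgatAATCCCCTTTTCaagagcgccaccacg
ITGB2 distal: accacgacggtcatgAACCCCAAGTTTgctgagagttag
GFFKR was found 1 time in the last 80 codons of each of the 6 α members, and the β motif 2 times in each of the 2 β members. The α tails differ beyond the shared motif: 17 codons follow it in ITGAM, 28 in ITGAX, 51 in ITGAL, 25 in ITGA4, 25 in ITGAE and 21 in ITGA5.

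After HSN748, transcripts of the 3 α subunits that pair with β2 rose, ITGAX most, while their common partner ITGB2 did not pass the test. ITGA4 was the only member that fell, to 122 ± 6.39 CPM (counts per 1000000 counts of the TMM-scaled library) in HSN748 cultures, against 223 ± 32.9 CPM in DMSO cultures (SD, n = 3 each). FERMT3 and ITGB1 rose by smaller amounts, and ITGA5, ITGAE, ITGB2 and TLN1 did not pass. In the quasi-likelihood test of edgeR, with p-values adjusted by Benjamini-Hochberg over 13084 genes, 5 of 10 members were higher and 1 was lower at an adjusted p under 0.05, while 36.6% of all genes tested were higher and 36.5% lower. With a log2 fold change beyond 1 as well, 3 members were called higher against 17.0% of all genes. No member was called lower (0 of 10 by edgeR even at an unadjusted p under 0.05, 0 by DESeq2 and 0 by limma-voom), against 14.9% of all genes. CPM of the 2 groups did not overlap for 6 of 10 members, against 75.4% of all genes, so the members as a set did not move more often than genes in general. The median log2 fold change was 0.30 over the members and 0.01 over all genes.

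**Figure D1:**
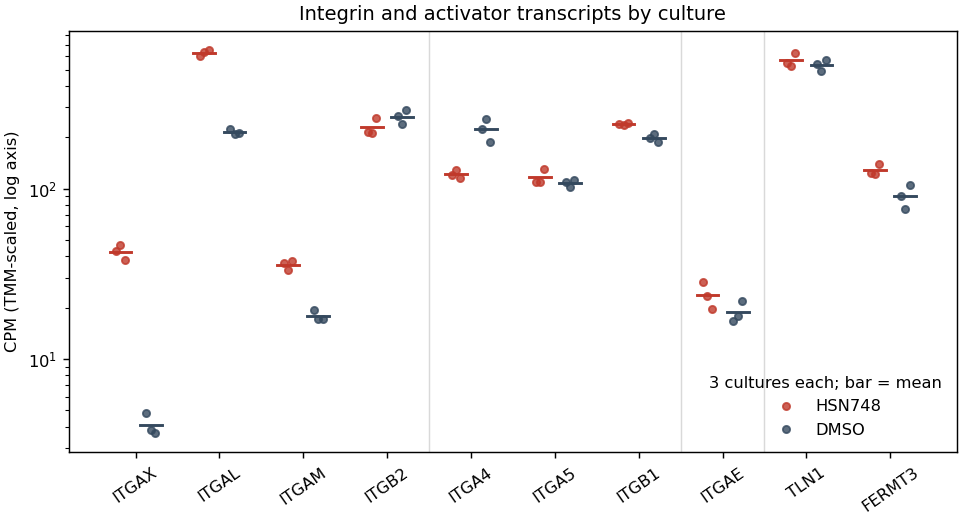
TMM-scaled CPM (log axis) of each integrin and activator gene in 3 HSN748 cultures (red) and 3 DMSO cultures (blue-grey); points are cultures and bars are means. The groups are widest apart for ITGAX (38.3 to 46.5 CPM with HSN748, 3.67 to 4.81 CPM with DMSO), and those of ITGA5, ITGAE, ITGB2 and TLN1 overlap.

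Library totals ranged from 35277785 to 47691631 counts in HSN748 cultures and from 38363312 to 59279430 counts in DMSO cultures, and the lowest count of any member in any culture was 133, for ITGAX in DMSO replicate 3. The biological coefficient of variation was 11.2%. Monocyte and macrophage maturation markers moved with the treatment. Of 18 such genes listed, 12 were tested; 9 rose, 2 fell and 1 missed the threshold, with a summed level of 2443 to 2552 CPM in HSN748 cultures, against 1130 to 1201 CPM in DMSO cultures. CSF1R, the receptor of the macrophage growth factor M-CSF, changed by 4.37 on the log2 scale (SE 0.12), and S100A9, a calgranulin, by -0.64 (SE 0.19). ITGAM and ITGAX are themselves used as markers of myeloid maturation, and what part the marker shift has in the integrin values was not tested. Fewer cells of a type and less RNA per cell cannot be told apart in these bulk samples. Of the myeloid progenitor and AML markers, 11 of 16 were tested, of which 5 were higher and 4 lower. Their sum was 2112 to 2217 CPM in HSN748 cultures and 1318 to 1359 CPM in DMSO cultures. FLT3, the receptor that defines the line, made up much of it, with 1150 ± 24.9 CPM in HSN748 cultures and 396 ± 18.8 CPM in DMSO cultures. Besides FLT3, the 5 that rose included ELANE (log2 fold change 0.71, SE 0.24), SPI1 (0.66, SE 0.15) and CEBPA (0.63, SE 0.12). The 4 that fell were MPO, the myeloperoxidase of granulocyte precursors (log2 fold change -2.26, SE 0.17), CD38 (-0.93, SE 0.11), GATA2 (-0.80, SE 0.21) and MYB (-0.43, SE 0.07). Lymphocyte markers tested were 3 of 14, namely NKG7, CD79A and PAX5, and these summed to 35.2 to 38.9 CPM in HSN748 cultures and 59.5 to 67.5 CPM in DMSO cultures. The lower sum came from PAX5, a B cell transcription factor (16.5 ± 2.42 CPM in HSN748 cultures, 53.1 ± 2.2 CPM in DMSO cultures), while NKG7 (log2 fold change 0.85, SE 0.15) and CD79A (1.35, SE 0.32) rose. Of 12 erythroid, fibroblast and epithelial markers, the 3 tested (COL1A1, KRT8 and KRT18) summed to 9.48 to 11.8 CPM in HSN748 cultures and 5.66 to 7.58 CPM in DMSO cultures.

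ITGAX, the αX (CD11c) subunit of monocytes, macrophages and dendritic cells, showed the widest difference of the 10 genes. Its CPM were 43.3, 46.5 and 38.3 in HSN748 replicates 7, 8 and 9, against 4.81, 3.82 and 3.67 in DMSO replicates 1, 2 and 3. The lowest HSN748 culture thus stood far above the highest DMSO culture. Means were 42.7 ± 4.1 CPM in HSN748 cultures and 4.1 ± 0.617 CPM in DMSO cultures (SD, n = 3 each), a log2 fold change of 3.37 (SE 0.13, 95% interval 3.06 to 3.68, adjusted p = 9.9e-08), or 10.3-fold. The gene lies on the plus strand of chromosome 16 from 31355176 to 31382999 in the deposited table, 30 merged exons of 4663 bases in all. The table names no build; 8723 of its 12794 genes with a RefSeq symbol share their start with GRCh38.p14, and each of the 10 members lies within 1000 bases of its RefSeq start there.

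The genes whose CPM profile over the 6 cultures came closest to that of ITGAX were THBS3, PNPLA7 and YPEL5. Likeness was the Euclidean distance between log2(CPM + 0.5) profiles centred on their means, and it was 0.179 for THBS3, 0.255 for PNPLA7 and 0.257 for YPEL5. THBS3, a thrombospondin of the extracellular matrix, had 33.8 ± 2.64 CPM in HSN748 cultures and 3.37 ± 0.362 CPM in DMSO cultures. PNPLA7, a lysophospholipase, had 14.1 ± 1.37 CPM in HSN748 cultures and 0.911 ± 0.27 CPM in DMSO cultures. YPEL5 had 126 ± 6.94 CPM in HSN748 cultures and 12.7 ± 0.483 CPM in DMSO cultures.

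ITGAL, the αL (CD11a) subunit of LFA-1, was the most abundant integrin subunit after treatment. It had 602, 635 and 648 CPM in HSN748 replicates 7, 8 and 9, against 224, 210 and 213 CPM in DMSO replicates 1, 2 and 3, with no overlap and little spread within either group. Its log2 fold change was 1.54 (SE 0.07, 95% interval 1.38 to 1.70, adjusted p = 2.1e-07), or 2.91-fold. ITGAL lies on the plus strand of chromosome 16 from 30472742 to 30523185. In GENCODE v29, a pair of antisense genes overlap 3.98% and 5.73% of its exon bases, and since the strand setting of the counting is not given in the sources used here, reads of the partners cannot be separated from those of ITGAL.

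ITGAM, the αM (CD11b) subunit of Mac-1, doubled. Its CPM were 36.6, 33.1 and 37.8 in HSN748 replicates 7, 8 and 9, against 19.3, 17.1 and 17.2 in DMSO replicates 1, 2 and 3. All HSN748 cultures stood above all DMSO cultures. The log2 fold change was 1.003 (SE 0.09, 95% interval 0.79 to 1.21, adjusted p = 1.4e-05), which sits on the fold threshold. It fell below that threshold without DMSO replicate 2, DMSO replicate 3 or HSN748 replicate 9 (0.97 in each case), and the lowest value under any alternative was 0.84, from limma on log2(RPKM + 1). The gene lies next to ITGAX on the plus strand of chromosome 16, from 31259975 to 31332877.

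ITGB2 encodes β2 (CD18), without which none of the 3 α subunits reaches the cell surface. Its CPM were 216, 212 and 259 in HSN748 replicates 7, 8 and 9, against 267, 239 and 289 in DMSO replicates 1, 2 and 3. The groups overlapped, since HSN748 replicate 9 stood above DMSO replicate 2. The log2 fold change was -0.21 (SE 0.10, 95% interval -0.44 to 0.02, adjusted p = 0.093), so a doubling such as that of ITGAM lay outside the interval. The call depended on single cultures: without DMSO replicate 2 the value was -0.28 (adjusted p = 0.028) and without HSN748 replicate 9 it was -0.30 (adjusted p = 0.033). Scaled to 11 reference genes it had the opposite sign, 0.27 (adjusted p = 0.029). In the TMM-scaled edgeR test 6 of those 11 genes were themselves lower. That result rests on TMM scaling, so it cannot decide between the 2 scalings. ITGB2 lies on the minus strand of chromosome 21 from 44885954 to 44928815. Its antisense gene ITGB2-AS1 overlaps 5.38% of its exon bases and had 2.5 ± 0.565 CPM in HSN748 cultures and 1.59 ± 0.387 CPM in DMSO cultures.

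**Figure D2:**
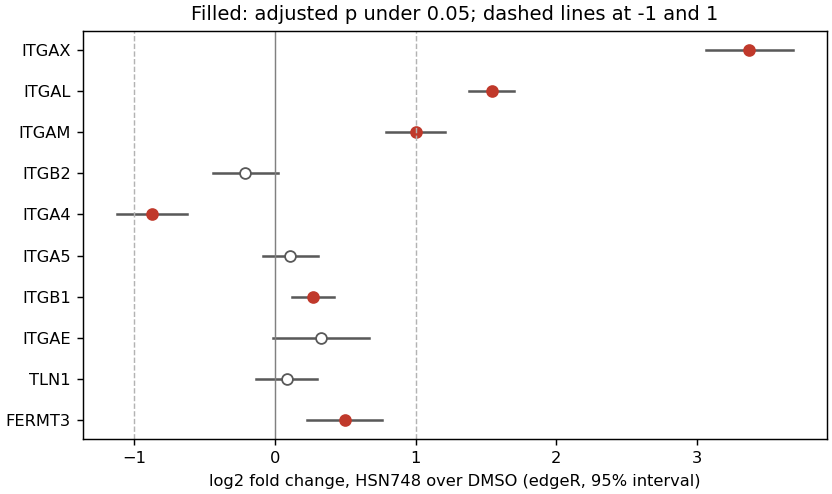
Log2 fold change of HSN748 over DMSO (horizontal axis) for the 10 genes, from edgeR with n = 3 cultures a group; points are estimates, lines are 95% intervals, and filled points passed an adjusted p of 0.05. ITGAX (3.37) and ITGAL (1.54) lie right of 1, ITGAM lies on it, and ITGA4 (-0.87) is the only filled point left of 0.

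ITGA4, the α4 (CD49d) subunit of VLA-4, fell. It had 121, 129 and 116 CPM in HSN748 replicates 7, 8 and 9, against 225, 255 and 189 CPM in DMSO replicates 1, 2 and 3. The HSN748 cultures lay close together and below every DMSO culture, whose own spread was wider. The log2 fold change was -0.87 (SE 0.11, 95% interval -1.12 to -0.62, adjusted p = 9.1e-05), a level 1.83-fold lower with HSN748. ITGA4 lies on the plus strand of chromosome 2 from 181456892 to 181538939. CERKL, a gene on the opposite strand that is not analysed here, shares 1569 of the ITGA4 exon bases (20.45%) in GENCODE v29, and its part in the ITGA4 counts was not tested.

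ITGA5, the α5 subunit of the fibronectin receptor, did not pass. Its CPM were 110, 109 and 130 in HSN748 replicates 7, 8 and 9, against 109, 102 and 112 in DMSO replicates 1, 2 and 3, a log2 fold change of 0.11 (SE 0.09, 95% interval -0.08 to 0.31, adjusted p = 0.26). Only HSN748 replicate 9 stood above all DMSO cultures. ITGB1, the β1 (CD29) partner of both α4 and α5, had 240, 235 and 243 CPM in HSN748 replicates 7, 8 and 9, against 198, 209 and 188 CPM in DMSO replicates 1, 2 and 3. These groups did not overlap, and the small difference passed the test, with a log2 fold change of 0.27 (SE 0.07, 95% interval 0.12 to 0.42, adjusted p = 0.0056). ITGA5 lies on the minus strand of chromosome 12 from 54395261 to 54419266, and ITGB1 on the minus strand of chromosome 10 from 32900318 to 32958230.

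ITGAE, the αE (CD103) subunit known from T cells in epithelia, had low levels in MOLM14. Its CPM were 28.2, 23.5 and 19.6 in HSN748 replicates 7, 8 and 9, against 16.8, 17.9 and 22 in DMSO replicates 1, 2 and 3, and the groups overlapped. The log2 fold change was 0.33 (SE 0.15, 95% interval -0.01 to 0.67, adjusted p = 0.076). The threshold was met without DMSO replicate 3 (0.45, adjusted p = 0.011) or HSN748 replicate 9 (0.46, adjusted p = 0.029). ITGB7, whose β7 product is the partner of αE and also pairs with α4, rose to 46.2 ± 1.3 CPM in HSN748 cultures, against 18.9 ± 1.09 CPM in DMSO cultures (log2 fold change 1.29, SE 0.08, adjusted p = 1.3e-06). ITGAE lies on the minus strand of chromosome 17 from 3714628 to 3801188.

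The activators gave differing values. FERMT3, which encodes kindlin-3, the kindlin of blood cells, had 123, 122 and 139 CPM in HSN748 replicates 7, 8 and 9, against 90.9, 76.3 and 105 CPM in DMSO replicates 1, 2 and 3. All HSN748 cultures were above all DMSO cultures, and the log2 fold change was 0.50 (SE 0.12, 95% interval 0.23 to 0.76, adjusted p = 0.0041). TRPT1, a tRNA phosphotransferase gene on the opposite strand, shares 3.64% of the FERMT3 exon bases and had 13.8 ± 0.787 CPM in HSN748 cultures and 8.26 ± 1.77 CPM in DMSO cultures. TLN1 had 546, 527 and 626 CPM in HSN748 replicates 7, 8 and 9, against 538, 493 and 570 CPM in DMSO replicates 1, 2 and 3. The groups overlapped, with a log2 fold change of 0.09 (SE 0.09, 95% interval -0.13 to 0.30, adjusted p = 0.43). FERMT3 lies on the plus strand of chromosome 11 from 64206680 to 64223891, and TLN1 on the minus strand of chromosome 9 from 35696948 to 35732195.

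Levels of different genes were compared as CPM divided by the gene length in kilobases (RPKM). In HSN748 cultures the order was ITGAL (122 ± 4.57 RPKM), ITGB2 (76.1 ± 8.52), TLN1 (65.7 ± 6.09), ITGB1 (60.6 ± 0.942), FERMT3 (50.1 ± 3.74), ITGA5 (27.4 ± 2.72), ITGA4 (15.9 ± 0.832), ITGAX (9.15 ± 0.878), ITGAM (7.59 ± 0.513) and ITGAE (6.25 ± 1.12 RPKM; SD, n = 3). Of neighbours in that order, the culture ranges of ITGB2 and TLN1, of TLN1 and ITGB1, and of ITGAM and ITGAE overlapped. In DMSO cultures it was ITGB2 (88 ± 8.39 RPKM), TLN1 (61.9 ± 4.46), ITGB1 (50.2 ± 2.65), ITGAL (42.1 ± 1.44), FERMT3 (35.6 ± 5.64), ITGA4 (29.1 ± 4.28), ITGA5 (25.3 ± 1.18), ITGAE (4.98 ± 0.714), ITGAM (3.78 ± 0.261) and ITGAX (0.879 ± 0.132 RPKM). There the ranges of ITGAL and FERMT3, of FERMT3 and ITGA4, and of ITGA4 and ITGA5 overlapped. ITGAL stood first with HSN748 and behind ITGB2, TLN1 and ITGB1 with DMSO, where ITGAX came last.

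The balance of subunits was compared within each culture as ratios of RPKM. ITGB2 over the sum of its α partners ITGAL, ITGAM and ITGAX was 0.535, 0.5 and 0.602 in HSN748 replicates 7, 8 and 9, against 1.82, 1.74 and 2.09 in DMSO replicates 1, 2 and 3. Transcripts of β2 thus outnumbered those of the 3 α subunits in each DMSO culture and were outnumbered in each HSN748 culture (log2 ratio HSN748 minus DMSO -1.79). ITGB1 over the sum of ITGA4 and ITGA5 moved the other way, at 1.46, 1.4 and 1.34 in HSN748 replicates 7, 8 and 9, against 0.91, 0.925 and 0.935 in DMSO replicates 1, 2 and 3 (log2 difference 0.60). ITGB2 over ITGB1 was 1.18, 1.18 and 1.4 in HSN748 replicates 7, 8 and 9, against 1.77, 1.5 and 2.01 in DMSO replicates 1, 2 and 3 (log2 difference -0.48). None of the 3 ratios overlapped between groups, and each gave p = 0.1 in a two-sided exact permutation test, the smallest p that 3 against 3 cultures allow. ITGB1 also pairs with ITGA6, ITGA7, ITGA1 and ITGAV, which the second ratio leaves out. ITGA7 had 23.9 ± 1.03 RPKM in HSN748 cultures and 6.33 ± 0.868 RPKM in DMSO cultures. With HSN748 it thus stood above ITGA4 (15.9 RPKM). ITGAV (6.61 with HSN748, 4.65 with DMSO) and ITGA6 (1.67 and 0.329) also rose, and ITGA1 fell (0.0501 and 0.21). A ratio of ITGB1 to all these partners was not computed, so the shift shown holds for ITGA4 and ITGA5 only. The α4 subunit also pairs with β7, likewise left out.

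**Figure D3:**
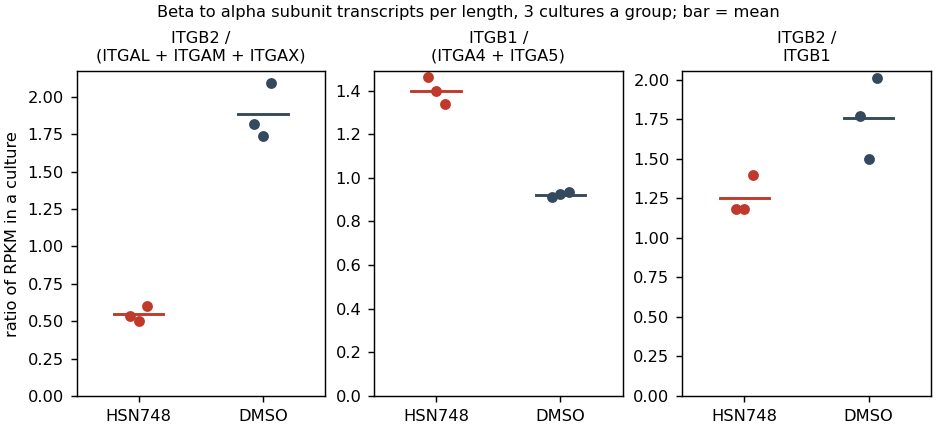
Ratio of RPKM within each culture (vertical axes from 0, no unit) for ITGB2 to its α partners, ITGB1 to ITGA4 plus ITGA5, and ITGB2 to ITGB1, with HSN748 left of DMSO; points are cultures and bars are means. The first ratio averages 0.546 with HSN748 and 1.88 with DMSO, the second 1.4 with HSN748 and 0.923 with DMSO.

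Within the α subunits of β2, ITGAL held 88% ± 0.637 of the summed RPKM in HSN748 cultures and 90% ± 0.454 in DMSO cultures (SD, n = 3 each). ITGAX held 6.58% ± 0.711 in HSN748 cultures and 1.87% ± 0.209 in DMSO cultures, and ITGAM 5.45% ± 0.412 in HSN748 cultures and 8.09% ± 0.245 in DMSO cultures. ITGAM therefore held a smaller share although its own level doubled. Between the α4 and α5 subunits, ITGA4 held 36.8% ± 3.28 in HSN748 cultures and 53.2% ± 4.82 in DMSO cultures. Over the 6 α members together, ITGAL held 64.9% ± 0.776 in HSN748 cultures and 39.7% ± 1.31 in DMSO cultures, and ITGA4 8.44% ± 0.534 in HSN748 cultures and 27.3% ± 3.47 in DMSO cultures.

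Bases before a RefSeq start are shown for ITGAM and FERMT3, which rose, and ITGA4, which fell. The core bound by PU.1 was marked because SPI1, which encodes this myeloid transcription factor, rose. SPI1 had 142 ± 14 CPM in HSN748 cultures and 90.2 ± 20.3 CPM in DMSO cultures (log2 fold change 0.66, SE 0.15, adjusted p = 0.0042). Whether PU.1 acts on these genes was not tested. The sequences are from RefSeq on GRCh38.p14, 150 bases each, on the plus strand, and capitals mark GAGGAA, the core bound by PU.1, or its reverse complement TTCCTC.
ITGAM, chr16:31259825-31259974: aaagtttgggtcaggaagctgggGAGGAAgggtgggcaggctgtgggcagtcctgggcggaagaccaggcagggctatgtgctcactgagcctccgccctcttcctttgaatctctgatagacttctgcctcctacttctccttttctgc
FERMT3, downstream start, chr11:64207556-64207705: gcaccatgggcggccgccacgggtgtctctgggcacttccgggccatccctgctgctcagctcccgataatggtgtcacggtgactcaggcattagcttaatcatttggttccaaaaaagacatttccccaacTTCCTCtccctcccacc
ITGA4, downstream start, chr2:181457236-181457385: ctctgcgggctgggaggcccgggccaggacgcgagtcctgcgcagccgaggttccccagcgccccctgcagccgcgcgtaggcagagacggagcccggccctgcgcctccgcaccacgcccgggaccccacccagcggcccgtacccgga
The ITGA4 window lies inside the gene, since its start in the deposited table (181456892) and the first RefSeq start (181457205) are both upstream of it. The FERMT3 window shown also lies inside its gene, which starts at 64206680 in the deposited table. The match begins at -127 from the start in ITGAM and at -17 in FERMT3, and the ITGA4 window holds none. No other member window had a whole match within its last 150 bases. Windows not shown had matches further upstream, at -152 in ITGAE, -184 in ITGB1 and -201 in the upstream window of FERMT3. RefSeq windows were matched for 7 of the 10 members, as 9 windows, those not matched being ITGAL, ITGAX and ITGB2. In the 250 bases before the start, on either strand, the PU.1 core was found in 5 of the 9 windows (4 of 7 genes), against 23.6% of 35116 promoters. The other motifs searched also had a higher share in these windows. A GC box (GGGCGG) was found in 6 of 9 (5 of 7 genes), against 42.6% of promoters. An ETS core (CCGGAA) was found in 3 of 9 (3 of 7 genes), against 14.5%. The higher share is thus not particular to PU.1. The windows with a PU.1 match were those of ITGAM, both of FERMT3, that of ITGAE, which did not pass, and 1 of the 2 of ITGB1. Those without were the other of ITGB1 and those of ITGA4, ITGA5 and TLN1. A match is only a match of letters.

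The other genes of the pathway were taken from lists. Of 7 other integrin subunits tested, 4 rose, 1 fell and 2 did not pass, with a median log2 fold change of 0.51. ITGA6, a laminin receptor subunit, had 10.1 ± 0.712 CPM in HSN748 cultures and 2 ± 0.236 CPM in DMSO cultures (log2 fold change 2.34, SE 0.14). ITGA7, also a laminin receptor subunit, had 108 ± 4.67 CPM in HSN748 cultures and 28.6 ± 3.92 CPM in DMSO cultures (1.92, SE 0.10). ITGAV, the αV subunit of vitronectin receptors, rose less (0.51, SE 0.15). ITGA1, a collagen receptor subunit, was the one that fell, to 0.538 ± 0.162 CPM in HSN748 cultures, against 2.26 ± 0.155 CPM in DMSO cultures (-2.06, SE 0.24).

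Recruitment of talin runs through the small GTPase RAP1 and its effectors. Of 12 genes tested in this group, 6 rose, 3 fell and 3 did not pass (median 0.23). FYB1, the adaptor ADAP, had 101 ± 8.28 CPM in HSN748 cultures and 14.8 ± 1.63 CPM in DMSO cultures (log2 fold change 2.78, SE 0.11). APBB1IP, the RAP1 effector RIAM that binds talin, had 276 ± 13.5 CPM in HSN748 cultures and 140 ± 1.53 CPM in DMSO cultures (0.98, SE 0.07). The RAP1 exchange factors differed in direction. RASGRP2 (CalDAG-GEFI), which activates RAP1 on calcium signals, fell to 23.6 ± 1.69 CPM in HSN748 cultures, against 62.3 ± 8.11 CPM in DMSO cultures (-1.40, SE 0.11), as did RAPGEF6 by less (-0.36, SE 0.10). RAPGEF3 (EPAC1), activated by cyclic AMP, rose at a low level to 2.83 ± 0.168 CPM in HSN748 cultures, against 0.605 ± 0.153 CPM in DMSO cultures (2.23, SE 0.22).

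Among 21 talin and kindlin relatives and adhesion adaptors tested, 10 rose, 8 fell and 3 did not pass (median 0.11). LPXN (leupaxin), a paxillin relative of blood cells, rose by a log2 fold change of 1.56 (SE 0.07), EVL, an actin regulator of the Ena/VASP family, by 1.02 (SE 0.07), and GIT2, a paxillin-binding adaptor, by 0.72 (SE 0.06). RSU1, which binds the ILK complex, had a log2 fold change of -0.78 (SE 0.06), and BCAR1 (p130Cas), a scaffold of adhesion sites, one of -2.02 (SE 0.23). Of 7 inhibitors of integrin activation tested, 3 rose, 2 fell and 2 did not pass (median 0.36). RAP1GAP2, which turns RAP1 off, rose by 1.19 (SE 0.08), and DOK1, which competes with talin for the β tail, by 0.36 (SE 0.11). SIPA1, likewise a RAP1 inactivator, had a log2 fold change of -0.53 (SE 0.18), and ITGB1BP1 (ICAP-1), which binds the β1 tail, one of -0.70 (SE 0.11).

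Of 18 kinases and adaptors that signal from bound integrins into the cell, 9 rose, 2 fell and 7 did not pass (median 0.21). TYROBP (DAP12), an adaptor that recruits SYK, had 65.8 ± 8.89 CPM in HSN748 cultures and 7.3 ± 2.07 CPM in DMSO cultures (log2 fold change 3.18, SE 0.20), while SYK itself did not pass (-0.02, SE 0.07). The tyrosine kinase SRC rose (1.85, SE 0.16). PTK2, the focal adhesion kinase, fell to 46 ± 0.681 CPM in HSN748 cultures, against 90.2 ± 2.75 CPM in DMSO cultures (-0.97, SE 0.07), and VAV2, an exchange factor for small GTPases, fell as well (-0.34, SE 0.08).

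Genes listed as integrin ligands were also transcribed by the cells. Of 9 tested, 7 rose, 1 fell and 1 did not pass (median 0.83). That list is wider than the ligands of the members. It holds TGFB1, which rose (log2 fold change 0.64, SE 0.14), and CD226, which did not pass (0.32, SE 0.14). C3, the complement component whose fragment binds αMβ2 and αXβ2, had 123 ± 10.7 CPM in HSN748 cultures and 9.89 ± 0.542 CPM in DMSO cultures (log2 fold change 3.64, SE 0.10). ICAM3 (1.94, SE 0.14) and F11R (1.70, SE 0.07), ligands of LFA-1, and ICAM4 (1.88, SE 0.17), a ligand of β2 integrins, rose with it. ICAM2, likewise an LFA-1 ligand, fell to 5.71 ± 0.997 CPM in HSN748 cultures, against 9.28 ± 1.32 CPM in DMSO cultures (-0.69, SE 0.16).

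**Figure D4:**
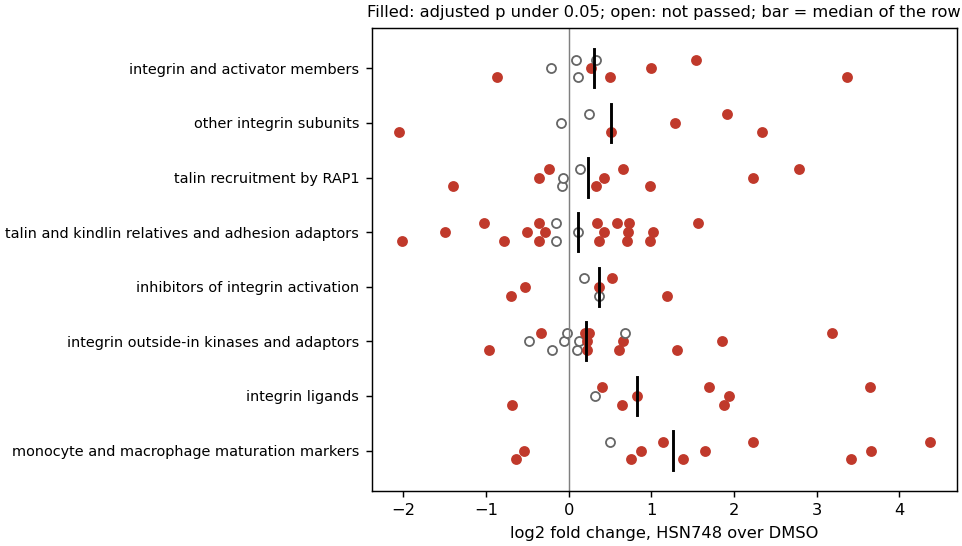
Log2 fold change of HSN748 over DMSO (horizontal axis) for each tested gene of the members and of 7 lists, 1 row a list; filled points passed an adjusted p of 0.05 in edgeR, open points did not, and bars are row medians. Medians run from 0.11 (talin and kindlin relatives) to 1.26 (monocyte and macrophage markers), against 0.30 for the members.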

How the data were processed

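For each gene the authors deposited unnormalized counts, with gene lengths and positions, for 6 MOLM14 libraries. The submitters' notes name bcl2fastq and STAR; their versions, the counting program, its strand setting, annotation and build were not given in the sources used here. Also in the deposited table were log2-scaled levels and the authors' own fold changes, p-values and FDR values, which were not used. From the counts of 13244 genes, filterByExpr kept 13084 and removed 160, and TMM scaling, the quasi-likelihood F test (on treatment alone) and adjustment by Benjamini-Hochberg were run in edgeR 4.0.16 under R 4.3.3. A standard error is the log2 fold change divided by the square root of F. "Higher" and "lower" mean an adjusted p under 0.05, and "called" also a log2 fold change beyond 1, the study's thresholds. RPKM were computed from the counts and the deposited lengths, and subunit ratios were compared by exact permutation of 3 against 3 cultures. Promoters and gene models came from RefSeq and GENCODE v29. Alternatives were other scalings, other tests (DESeq2 1.42.0, limma 3.58.1), other filters and leaving out each culture. The members and lists were chosen with earlier results of these data known. The rule for named genes took all members, from each list up to 4 genes of smallest adjusted p, and up to 2 that went against the list's majority, with ITGB7, ITGAV, ITGA6 and the 3 profiles nearest to that of ITGAX. A gene that this rule takes is not reported here. Reference genes were used for 1 scaling only, and SPI1, ELANE, CEBPA, SYK, GATA2, MYB, TGFB1, CD226, TRPT1 and ITGB2-AS1 were named after their values were seen.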

Additional observations from a re-analysis of the deposited data

How the results depend on the processing

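ITGAX, ITGAL, ITGAM, FERMT3, ITGB1 and ITGA4 kept their direction and an adjusted p under 0.05 under all 15 alternatives; their log2 fold changes ranged from 2.43 to 3.85 for ITGAX, 1.52 to 2.02 for ITGAL, 0.84 to 1.48 for ITGAM, 0.38 to 0.98 for FERMT3, 0.23 to 0.75 for ITGB1 and -0.97 to -0.39 for ITGA4. The number of members called higher was 2 in place of 3 under RLE scaling, DESeq2 and limma on log2(RPKM + 1). It was also 2 without DMSO replicate 2, DMSO replicate 3 or HSN748 replicate 9. In each case ITGAM fell below the fold threshold, furthest with limma on log2(RPKM + 1) (0.84). Members higher at an adjusted p under 0.05 numbered 8 with upper-quartile scaling and 9 when scaled to reference genes. Members lower ranged from 1 to 2 when each culture was left out, the other being ITGB2. Scaled to reference genes, ITGB2 had the opposite sign (0.27), 3823 genes were called higher and 1046 lower, against 2230 and 1949 with TMM; limma on log2(RPKM + 1) called 974 higher, where the pseudocount shrinks the change of low genes. These scalings move all genes together: the median over all genes, on the log2 scale, was 0.21 with upper-quartile scaling (2809 called higher, 1488 lower), 0.13 with total counts (2551 and 1676) and 0.48 with reference genes, and that of the members 0.51, 0.43 and 0.78. ITGA5 passed under these 3 scalings (0.32, 0.24 and 0.59), ITGAE too (0.54, 0.46 and 0.81), and TLN1 with upper-quartile scaling (0.29) and reference genes (0.57). The log2 subunit ratios, HSN748 minus DMSO, ranged from -1.86 to -1.71 (ITGB2 to its α partners), 0.57 to 0.63 (ITGB1 to ITGA4 plus ITGA5) and -0.60 to -0.38 (ITGB2 to ITGB1) without each culture. Not divided by gene length, they were -1.78, 0.74 and -0.48 in that order. With 1 RPKM added they were -1.72, 0.58 and -0.48. Having 3 cultures of 1 line a group limits the precision. No paired analysis was possible because the groups share no replicate numbers.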
